A study of Mus musculus with 6 samples.

Results

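AP-1 is a family of paired transcription factors, and 10 genes of its core and of the immediate early response around it were followed here in newborn mouse epidermis: Fos, Fosb, Fosl1, Fosl2, Jun, Junb, Jund, Atf3, Egr1 and Dusp1. They were chosen by name and found through the RefSeq accessions of the array probes, which gave 12 probes for the 10 genes, out of 12824 genes tested. The AhRCA mice, 3 in all, carried an aryl hydrocarbon receptor (AhR) that is active without a ligand, driven by the keratin 14 promoter of basal keratinocytes. The wild-type (WT) mice, also 3, were their littermates without it. All mice were at postnatal day 0 and of a strain given only as a mix, with 1 AhRCA mouse and 1 WT littermate in each of 3 samplings, called litter pairs 1 to 3 below. Each mouse had its own 1-colour Agilent array, and values are log2 intensities minus the array's 75th percentile, called levels below. Neither the founder line of the transgene nor the way the epidermis was isolated is given in the sources used here.

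AP-1 dimers hold a JUN protein joined to a FOS, JUN or ATF protein through leucine zippers, and bind short palindromic sites in promoters and enhancers. FOS, FOSB, JUN, JUNB, ATF3 and EGR1 are made within minutes of growth factors, wounding or stress, when MAP kinases and serum response factor act on their promoters, and DUSP1 then dephosphorylates those kinases. In epidermis AP-1 regulates keratinocyte proliferation and the genes of terminal differentiation, and its members are expressed in different layers. AhR with its partner ARNT binds a DNA element with the core GCGTG. Because excision of a tissue can itself induce these genes, the litter pairs were compared as well as the genotypes.

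Promoter windows in RefSeq (GRCm38.p6) were found for 8 of the 10 genes, each holding 250 bases before the annotated start and 50 after. Jun had the largest genotype difference and Atf3 had 2 matches to the AhR core. Fos and Dusp1 differed between litter pairs at an unadjusted p under 0.05 only (limma F test, adjusted p = 0.132 and 0.123). The windows of Jun, Atf3, Fos and Dusp1 are shown in that order on the strand of the gene. They lie at chr4:95052173-95052472 on the minus strand for Jun, chr1:191183284-191183583 on the minus strand for Atf3, chr12:85473640-85473939 on the plus strand for Fos and chr17:26508423-26508722 on the minus strand for Dusp1. Capitals mark a match to the AhR core or to a cyclic AMP response element.
Jun: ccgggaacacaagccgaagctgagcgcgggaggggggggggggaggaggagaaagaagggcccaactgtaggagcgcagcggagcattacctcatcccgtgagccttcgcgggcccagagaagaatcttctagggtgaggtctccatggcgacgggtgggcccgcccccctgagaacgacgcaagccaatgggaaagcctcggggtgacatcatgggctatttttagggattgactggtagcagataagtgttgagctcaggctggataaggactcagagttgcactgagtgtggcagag
Atf3: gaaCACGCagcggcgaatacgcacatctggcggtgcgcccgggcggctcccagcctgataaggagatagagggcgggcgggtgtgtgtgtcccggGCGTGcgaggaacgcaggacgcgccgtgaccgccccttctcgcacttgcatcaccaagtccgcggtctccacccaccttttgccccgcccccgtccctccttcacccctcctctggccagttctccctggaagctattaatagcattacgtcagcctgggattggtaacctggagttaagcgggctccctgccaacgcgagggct
Fos: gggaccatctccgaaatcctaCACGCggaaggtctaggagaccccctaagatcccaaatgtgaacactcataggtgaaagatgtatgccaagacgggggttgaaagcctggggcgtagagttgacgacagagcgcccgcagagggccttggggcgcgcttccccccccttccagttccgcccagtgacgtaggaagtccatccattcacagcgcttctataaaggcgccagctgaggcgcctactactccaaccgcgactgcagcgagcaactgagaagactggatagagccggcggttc
Dusp1: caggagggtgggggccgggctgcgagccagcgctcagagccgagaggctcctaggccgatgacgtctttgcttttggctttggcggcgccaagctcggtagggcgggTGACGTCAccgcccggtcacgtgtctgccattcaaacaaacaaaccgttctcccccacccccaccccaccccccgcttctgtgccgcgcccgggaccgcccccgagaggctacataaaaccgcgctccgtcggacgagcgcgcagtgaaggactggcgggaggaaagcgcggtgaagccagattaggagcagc

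The AhR core GCGTG, searched on both strands, was found in 4 of the 8 windows and in 32.39% of all 32851 windows. Atf3 held it at positions -247, read on the opposite strand, and -155, Fos at -229 on the opposite strand, and, on the opposite strand too, Junb at -123 and -79 and Fosb at 32, all counted from the annotated start. Jun, Jund, Fosl2 and Dusp1 had none in these windows. The cyclic AMP response element TGACGTCA, a palindrome, was found in the Dusp1 window alone of the 8, at -143, and in 1.79% of all windows. The AP-1 site TGANTCA, where N is any base, was in none of the 8 windows and in 7.81% of all windows, and the CArG box, which serum response factor binds, was in none of the 8 and in 1.63% of all. The 8 windows held between 46.7% and 68.3% G and C, against a median of 52.7% over all windows. Only exact matches to these patterns inside the windows were counted, so variant sites and sites further from the start were not searched. These matches describe the windows and were not tested as binding sites.

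AhRCA epidermis differed little from WT in these 10 genes. The log2 difference, AhRCA minus WT, lay between -0.10 for Jund and 0.52 for Jun and was positive for 9 of the 10. None reached an adjusted p under 0.05 (limma, with Benjamini-Hochberg adjustment over all genes), while 2.18% of all genes tested did, 0.53% higher and 1.65% lower in AhRCA. At an unadjusted p under 0.05 there was 1 of 10, Jun, against 12.2% of all genes. With litter pairs blocked, that is with the pair as a term in the fit, still 0 of 10 passed at an adjusted p under 0.05, against 3.88% of all genes. Jun and Atf3 then had an unadjusted p under 0.05, against 17.7% of all genes. In whole epidermis fewer cells of a type and less RNA per cell cannot be told apart.

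The labels were checked on Cyp1a1, a xenobiotic-metabolizing enzyme that AhR strongly induces. Its level was 3.32, 3.68 and 5.04 in AhRCA mice 1 to 3, against -3.96, -3.03 and -2.18 in WT mice 1 to 3. The groups were far apart. Of the 5 AhR target genes examined, Cyp1a1, Cyp1b1, Nqo1 and Tiparp were well above background on all 6 arrays and rose (limma, adjusted p under 0.05). Ahrr, measured on all 3 AhRCA arrays and on 2 of the WT arrays, passed the filter on dim probes through AhRCA, so its call adds nothing to this check.

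The FOS proteins cannot pair with each other and bind DNA only beside a partner such as JUN. Fos, the founding member, had levels of 4.76, 5.0 and 5.32 in AhRCA mice 1 to 3, against 4.64, 4.77 and 5.08 in WT mice 1 to 3. Each AhRCA mouse stood slightly above its own littermate, but the groups overlapped and in both genotypes the mouse of pair 3 was the highest. The log2 difference was 0.20 ± 0.19 (SE, n = 3 per group), with a 95% confidence interval from -0.25 to 0.64 (limma, adjusted p = 0.916) and from -0.02 to 0.42 with litter pairs blocked.

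Fosb encodes a FOS relative best known from neurons. It had levels of 1.93, 2.09 and 2.17 in AhRCA mice, against 2.24, 2.0 and 1.63 in WT mice. The AhRCA mice were alike and the WT mice spread on both sides of them, so that the littermate difference changed sign, with -0.32 in pair 1, 0.09 in pair 2 and 0.54 in pair 3. Its overall log2 difference was 0.10 ± 0.18 (SE, n = 3 per group; limma, adjusted p = 0.999).

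Fosl1 and Fosl2 encode FRA1 and FRA2, which lack the strong activation domain of FOS. Fosl1 had levels of 2.20, 2.03 and 1.92 in AhRCA mice, against 1.87, 2.01 and 1.36 in WT mice. Its groups overlapped only through WT mouse 2, and the log2 difference was 0.31 ± 0.19 (SE, n = 3 per group), with a 95% confidence interval from -0.15 to 0.76 (limma, adjusted p = 0.719). Fosl2 had levels of 2.01, 2.01 and 2.66 in AhRCA mice, against 1.97, 2.04 and 2.34 in WT mice. Only pair 3 showed a separation of the littermates, and the log2 difference was 0.11 ± 0.21 (SE, n = 3 per group; limma, adjusted p = 0.999). A dimmer probe of Fosl2 had a mean level of -2.33 in AhRCA mice and -2.60 in WT mice, a difference of 0.27 in the same direction.

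The JUN proteins form dimers with each other as well as with FOS proteins. Jun, the strongest activator among them and a promoter of keratinocyte proliferation, was the member with the clearest separation of the genotypes. Its array intensities were 14935, 16854 and 13760 in AhRCA mice 1 to 3, against 12062, 11594 and 9152 in WT mice 1 to 3. The corresponding levels were 4.45, 4.75 and 4.19 in AhRCA mice, against 4.05, 4.11 and 3.68 in WT mice. Every AhRCA mouse was above every WT mouse, and the littermate differences were close to each other, at 0.40, 0.64 and 0.51 in pairs 1 to 3.

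For Jun this gave a log2 difference of 0.52 ± 0.19 (SE, n = 3 per group), or 1.43-fold, with a 95% confidence interval from 0.07 to 0.97 (limma, unadjusted p = 0.0303, adjusted p = 0.318). With litter pairs blocked the interval ran from 0.28 to 0.76 (limma, adjusted p = 0.0639), and with the slide as a block the adjusted p was 0.0612. The estimate was 0.52 on slide 1 alone. Among the 16 alternatives tried it lay between 0.37 and 0.65, with an adjusted p between 0.0612 and 0.695, so that Jun missed the threshold in each.

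Junb, which often opposes JUN in keratinocytes, had levels of 7.67, 7.74 and 7.76 in AhRCA mice, against 7.63, 7.29 and 7.48 in WT mice. The AhRCA mice were tightly grouped and just above the highest WT mouse, which belonged to pair 1. The log2 difference was 0.25 ± 0.12 (SE, n = 3 per group), with a 95% confidence interval from -0.04 to 0.54 (limma, adjusted p = 0.526). A dimmer probe of Junb averaged 6.66 in AhRCA mice and 6.49 in WT mice, a difference of 0.17, and on it the groups overlapped.

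Jund is the JUN gene least dependent on stimulation and is expressed in resting cells. Its levels were 6.83, 6.96 and 6.65 in AhRCA mice, against 6.93, 7.01 and 6.78 in WT mice. It was the only member with a negative difference and the only 1 with the AhRCA mouse below its littermate in all 3 pairs, by 0.11, 0.05 and 0.13 on the log2 scale. The groups overlapped, and the log2 difference was -0.10 ± 0.13 (SE, n = 3 per group), with a 95% confidence interval from -0.40 to 0.21 (limma, adjusted p = 0.983).

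**Figure D1:**
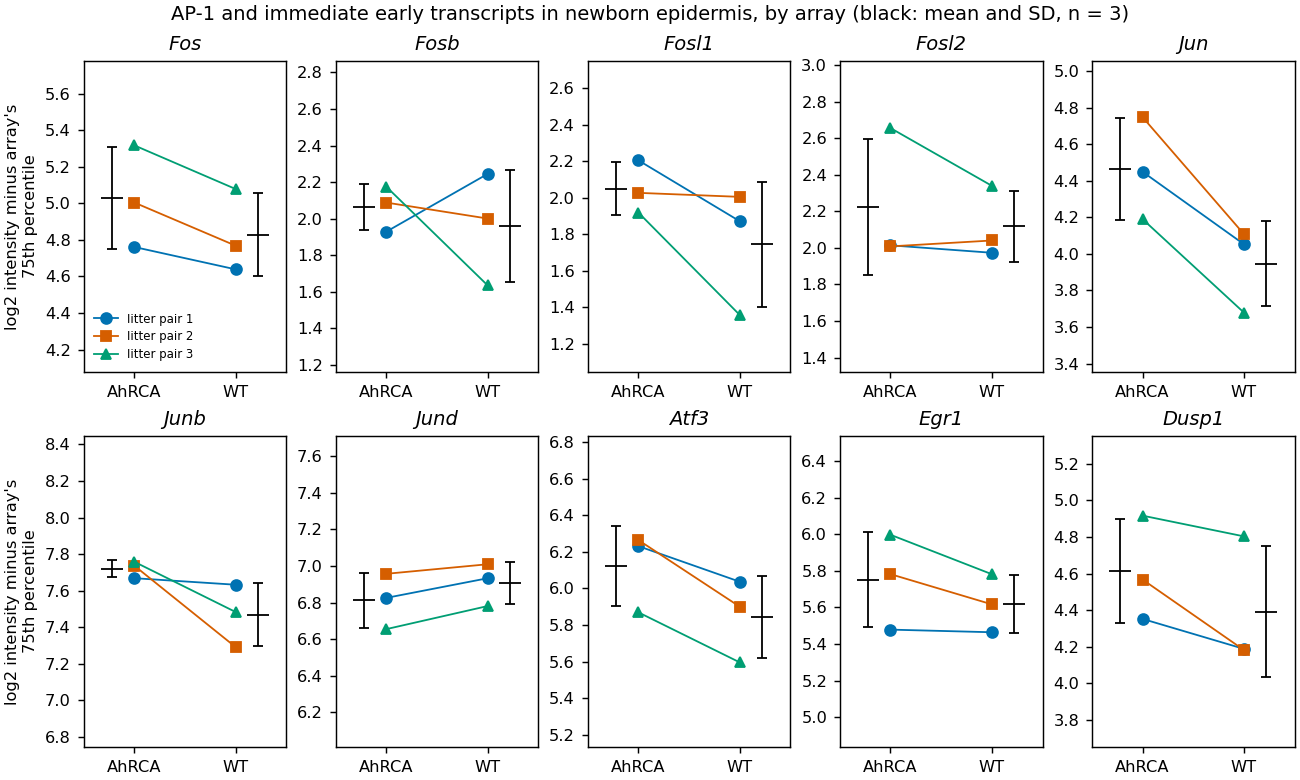
Level of each gene on the 6 arrays (log2 intensity minus the array's 75th percentile; y axes span the same range but start at different values), AhRCA left and WT right, with a line joining the littermates of a pair and black bars for the mean and SD of 3 mice. For Jun and Junb all AhRCA points lie above all WT points, Jund slopes the other way, and for Fos, Egr1 and Dusp1 pair 3 lies highest in both genotypes.

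ATF3 is a stress-induced partner of JUN proteins. Atf3 had levels of 6.23, 6.26 and 5.87 in AhRCA mice, against 6.04, 5.90 and 5.60 in WT mice. Each AhRCA mouse was above its littermate, by 0.19, 0.36 and 0.27, but AhRCA mouse 3 was below WT mice 1 and 2. The log2 difference was 0.28 ± 0.17 (SE, n = 3 per group; limma, adjusted p = 0.701). With litter pairs blocked its 95% confidence interval ran from 0.05 to 0.50 (limma, unadjusted p = 0.0248, adjusted p = 0.194).

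EGR1, a zinc finger protein rather than an AP-1 subunit, is induced through the same serum response elements as FOS. Egr1 had levels of 5.48, 5.78 and 6.0 in AhRCA mice, against 5.46, 5.62 and 5.78 in WT mice. The groups overlapped widely, and in both genotypes the mouse of pair 3 was the highest. The log2 difference was 0.13 ± 0.17 (SE, n = 3 per group), with a 95% confidence interval from -0.26 to 0.53 (limma, adjusted p = 0.978).

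DUSP1 is the phosphatase that switches off JNK and p38, the kinases upstream of JUN and ATF proteins. Dusp1 had levels of 4.35, 4.57 and 4.92 in AhRCA mice, against 4.19, 4.18 and 4.8 in WT mice. Both mice of pair 3 stood above all others, and the littermates differed by 0.16, 0.39 and 0.11 in pairs 1 to 3. The log2 difference was 0.22 ± 0.23 (SE, n = 3 per group), with a 95% confidence interval from -0.32 to 0.76 (limma, adjusted p = 0.938).

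The genotypes did not overlap for 2 of the 10 genes, Jun and Junb, both higher in AhRCA, while 7.52% of all genes had AhRCA wholly above WT. The AhRCA mouse was above its littermate in all 3 pairs for 7 of the 10 genes, namely Fos, Fosl1, Jun, Junb, Atf3, Egr1 and Dusp1, against 19.7% of all genes. It was below in all 3 pairs for Jund, against 20.1% of all genes. Both counts depended on the scaling. The genes above in all pairs were 4 of 10 under quantile normalization, against 20.3% of all genes, and 8 with each array's median subtracted, against 25.8% of all genes. They were 7 with normexp background correction or with the authors' deposited table. With the median subtracted Jund was no longer below in all pairs, so that the count was 0 of 10, against 15.5% of all genes. Several of the littermate differences were very small, such as 0.01 for Egr1 and 0.04 for Junb in pair 1 and 0.02 for Fosl1 in pair 2. The members' median log2 difference was 0.21, against 0.00 over all genes tested.

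**Figure D2:**
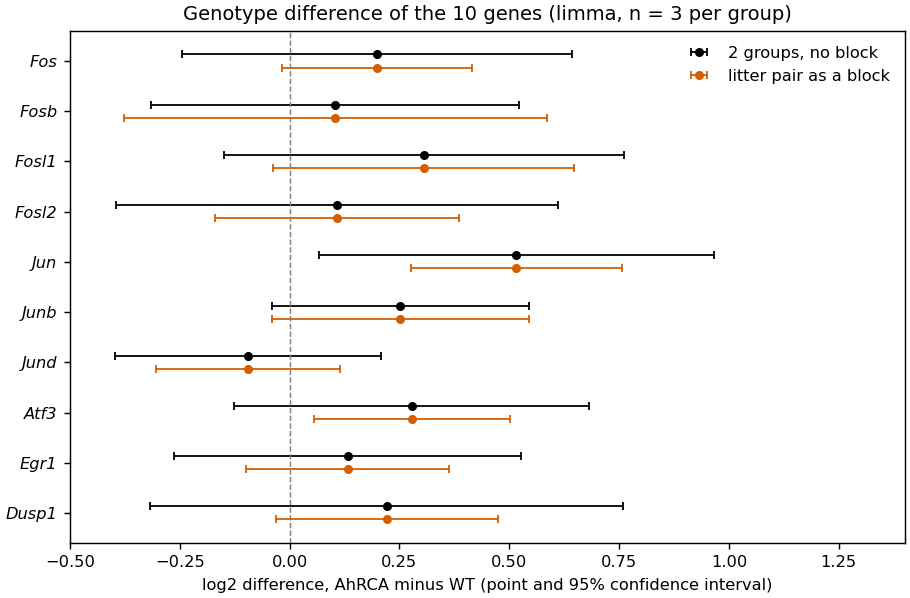
Log2 difference between the genotypes, AhRCA minus WT, for each gene with its 95% confidence interval from limma (black, 2 groups without a block; orange, litter pair as a block; 3 mice per group). Jun alone excludes 0 in both fits and Atf3 does so with the block, and after adjustment over 12824 genes neither passes.

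Fos stood 0.50 higher in pair 3 than in pair 1, against a genotype difference of 0.20, and Dusp1 stood 0.59 higher, against 0.22. These gaps are not alike, since a pair mean holds 2 mice, a genotype mean 3, and pairs 1 and 3 were the furthest apart. The share of all genes with a larger gap between pairs was not counted. Replicates 1 and 2 of both genotypes shared slide 1 and replicate 3 of both lay on slide 2. By Xist, the transcript of the inactive X chromosome, and the Y-linked Ddx3y, the mice of pair 3 were male and the others female. Xist levels were -7.14 in AhRCA mouse 3 and -4.20 in WT mouse 3, against 4.43 to 4.66 in the others. Handling at sampling, litter, slide and sex therefore cannot be told apart between pair 3 and the rest. Litter pair, slide and sex were balanced between the genotypes. How the 2 littermates of a sampling were handled is not given in the sources used here.

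At an adjusted p under 0.05, 0 of the 10 genes differed among the 3 litter pairs (limma F test with genotype in the fit), against 1.36% of all genes. The 175 genes behind that share became 10 under quantile normalization, 278 with normexp, 9 with dim probes included and 0 to 44 without 1 array. At an unadjusted p under 0.05 there were 6 of 10, Fos, Fosl2, Jun, Atf3, Egr1 and Dusp1, against 24.6% of all genes, and their adjusted p lay between 0.123 and 0.176. The 6 did not move one way. Fos averaged 5.20 in pair 3, against 4.70 in pair 1 and 4.89 in pair 2. Egr1 averaged 5.89 in pair 3, against 5.47 in pair 1 and 5.70 in pair 2.

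Fos, Egr1, Dusp1 and Fosl2 were thus highest in pair 3, with pair 2 also above pair 1 by 0.19, 0.23, 0.10 and 0.03 in the same order. Dusp1 averaged 4.86 in pair 3, against 4.27 in pair 1 and 4.37 in pair 2. Jun and Atf3 went the other way, with Jun at 3.93 in pair 3, against 4.25 in pair 1 and 4.43 in pair 2. Atf3 averaged 5.73 in pair 3, against 6.13 in pair 1 and 6.08 in pair 2. In all, pair 3 was the highest pair for 4 genes and the lowest for 5. Junb, with 7.62 in pair 3, 7.65 in pair 1 and 7.51 in pair 2, was neither. The share of all genes highest or lowest in pair 3 was not counted, so these counts are not particular to the 10 genes.

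A comparison of slide 2 with slide 1, added after these values were seen, called 3 of the 10 genes, against 14.5% of all genes (limma with genotype in the fit, adjusted p under 0.05). Dusp1 was higher on slide 2 by 0.54 on the log2 scale (95% confidence interval 0.29 to 0.78; limma, adjusted p = 0.0305). Fosl2 was higher by 0.49 (0.24 to 0.74; adjusted p = 0.0375) and Atf3 lower, at -0.38 (-0.58 to -0.18; adjusted p = 0.0405). The dimmer probe of Fosl2 ran against the brighter 1, with a mean level of -2.79 on slide 2 and -2.31 on slide 1, so the direction for Fosl2 rests on the choice of probe. Fos, with 0.40 (adjusted p = 0.0564), and Jun, with -0.41 (adjusted p = 0.0617), did not pass. Leaving out any 1 array brought the count of 3 to 0, while the count over all genes fell to between 37 and 366, against 1860 with all arrays. Testing dim probes too gave 0 members and 559 genes.

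**Figure D3:**
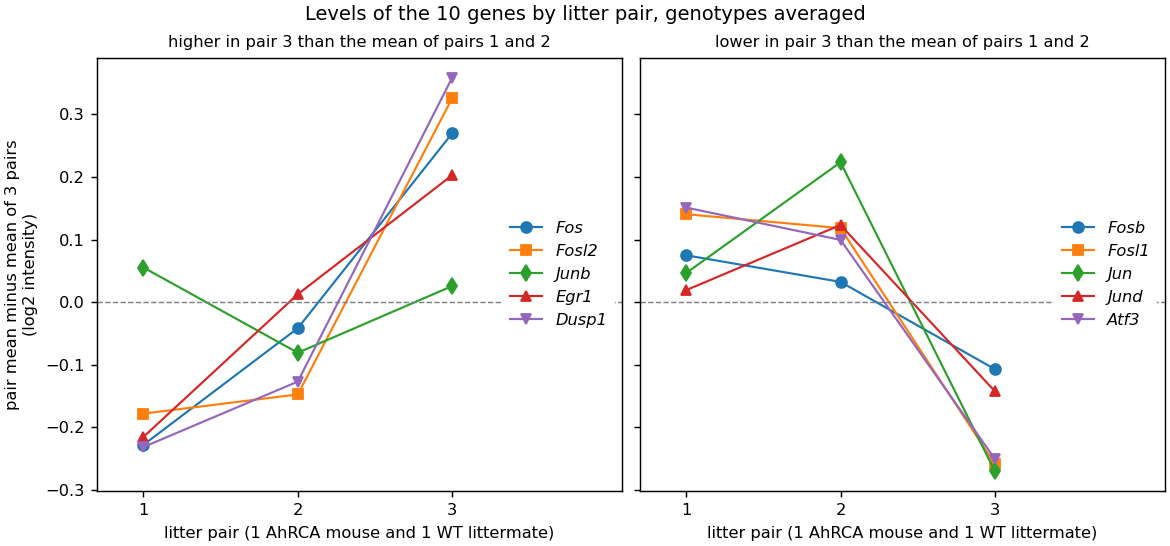
Mean level of each gene in litter pairs 1 to 3 (both genotypes averaged, 2 mice per point), minus the gene's mean over the pairs, in log2 intensity. Fos, Fosl2, Egr1 and Dusp1 are highest in pair 3 (left) while Fosb, Fosl1, Jun, Jund and Atf3 are lowest there (right), and lines only join the points of a gene.

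The genotype difference itself was compared between the slides. No member passed (limma interaction, adjusted p under 0.05), and 1 gene of all those tested did, or 0.0078%. At an unadjusted p under 0.05 there was 1 of 10, Fosb, against 9.98% of all genes, with a genotype difference greater by 0.65 on slide 2 (95% confidence interval 0.05 to 1.26; limma, adjusted p = 0.496). For Jun the corresponding value was -0.01, with a wide interval from -0.63 to 0.61.

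The likeness of other genes to Fos was measured as the root mean square difference between profiles over the 6 arrays, each centred on its own mean, over 12046 genes well above background on all arrays. Of these Egr1 was the closest but 1, at 0.0630, and Dusp1 stood at rank 32, at 0.0916. Fosl2 was at rank 106 (0.113), followed by Junb (0.227), and the other members lay between 0.324 and 0.414. The closest genes outside the 10 were Arhgap42 (0.0509), Synj2 (0.0660), which encodes an inositol phosphatase, Zfp661 (0.0665), Amn1 (0.0680) and Ctso (0.0686), a cysteine protease gene. All 6 points of each profile share their arrays, and with them slide, litter and sex.

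Of 31 other immediate early genes, 1 rose in AhRCA and 0 fell (limma; 4 had an unadjusted p under 0.05, against 12.2% of all genes), with a median log2 difference of 0.19, against 0.00 over all genes tested. The 1 that rose was Nfkbiz, which encodes a nuclear regulator of NF-kB target genes in keratinocytes. Its level was 2.22, 2.20 and 2.42 in AhRCA mice, against 1.67, 1.13 and 1.30 in WT mice. The groups were well apart, with a log2 difference of 0.91 ± 0.17 (SE, n = 3 per group; limma, adjusted p = 0.0484, and 0.0508 with litter pairs blocked). Leaving out any array but WT replicate 1 ended its call. With the block the gene that passed, named after its value was seen, was Ccn1, a matricellular protein of the serum response, with 0.53 (adjusted p = 0.0453).

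Among 14 other bZIP partners of AP-1, 0 rose and 0 fell (limma), with a median of 0.02. An unadjusted p under 0.05 was reached by 3, against 12.2% of all genes. Jdp2, a repressor that pairs with JUN, had levels of -3.08, -3.18 and -2.77 in AhRCA mice, against -1.88, -1.84 and -2.37 in WT mice. The groups did not overlap, and the log2 difference was -0.98 ± 0.19 (SE, n = 3 per group; limma, adjusted p = 0.0603). It was larger in pairs 1 and 2 than in pair 3, and on slide 1 alone it passed, with -1.26 (adjusted p = 0.0356). It also passed without WT replicate 3, with -1.15. Batf, an AP-1 partner known from lymphocytes, had -0.65 ± 0.19 (adjusted p = 0.183). With normexp background correction both differences were smaller, at -0.60 for Jdp2 and -0.23 for Batf.

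Of 13 feedback regulators of MAP kinases, 0 rose and 0 fell (limma), with a median of 0.12. An unadjusted p under 0.05 was reached by 1, against 12.2% of all genes. Dusp2, another nuclear MAP kinase phosphatase, had levels of 0.21, 0.23 and 0.58 in AhRCA mice, against 0.81, 1.26 and 1.06 in WT mice. The AhRCA mice were all below the WT mice, and the log2 difference was -0.70 ± 0.17 (SE, n = 3 per group; limma, adjusted p = 0.107). Dusp1 and Dusp2 thus had differences of opposite sign, neither past the threshold. Spred1, an inhibitor of RAS signalling, had 0.46 ± 0.21 (adjusted p = 0.480).

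Of 15 upstream kinases and cofactors of serum response factor, 0 rose and 0 fell (limma), with a median of 0.04. An unadjusted p under 0.05 was reached by 1, against 12.2% of all genes. The largest differences were 0.48 ± 0.13 for Mrtfb, an actin-regulated cofactor of serum response factor (SE, n = 3 per group; limma, adjusted p = 0.146), and -0.20 ± 0.17 for Map2k4, a kinase that activates JNK (adjusted p = 0.879).

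Of 20 genes known to have AP-1 dependent promoters, 1 rose and 1 fell (limma; 7 had an unadjusted p under 0.05, against 12.2% of all genes), with a median of -0.04. Ptgs2, the inducible cyclooxygenase, had levels of 0.20, -0.51 and -0.29 in AhRCA mice, against -2.11, -3.21 and -3.85 in WT mice. The groups lay far apart, with a log2 difference of 2.85 ± 0.44 (SE, n = 3 per group; limma, adjusted p = 0.0293). Timp1, an inhibitor of matrix metalloproteinases, had levels of -2.81, -2.65 and -2.73 in AhRCA mice, against -1.54, -1.96 and -2.0 in WT mice. It was lower on every AhRCA array, with -0.90 ± 0.15 (limma, adjusted p = 0.0402, and 0.0548 with litter pairs blocked). Leaving out any array but WT replicate 1 ended the call of Ptgs2, and leaving out any array at all that of Timp1.

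With litter pairs blocked 2 genes of this list rose and 1 fell, against 3.88% of all genes in either direction. The 2 not yet described, named after their values were seen, were Plau, the urokinase gene, with 0.73 (limma, adjusted p = 0.0328), and the collagenase gene Mmp13, with -1.07 (adjusted p = 0.0123). For Mmp13 the littermates differed by -1.10, -1.11 and -1.0, while its level was -3.14, -5.25 and -4.48 in AhRCA mice, against -2.04, -4.15 and -3.48 in WT mice. Its pairs stood further apart than its genotypes did.

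The heat shock genes, which are induced by stress of the tissue, served beside the immediate early genes in the comparison of the litter pairs. Of 13, 0 rose and 0 fell in AhRCA (limma), and the median log2 difference was -0.08. An unadjusted p under 0.05 was reached by 0, against 12.2% of all genes. Hsph1, a chaperone gene, had levels of 3.71, 2.50 and 2.35 in AhRCA mice, against 3.09, 2.97 and 3.14 in WT mice. AhRCA mouse 1 was the highest and the other AhRCA mice the lowest of the 6, and the log2 difference was -0.21 ± 0.35 (SE, n = 3 per group; limma, adjusted p = 0.999). Hspa5, the chaperone of the endoplasmic reticulum, had -0.18 ± 0.17 (adjusted p = 0.925).

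The median littermate difference of the heat shock genes was 0.20, -0.10 and -0.36 in pairs 1 to 3, whereas that of the 10 AP-1 and immediate early genes was 0.08, 0.20 and 0.27 in the same pairs. Pair 3 minus pair 1, the median was -0.27 for the heat shock genes, -0.10 for the 10 genes, -0.09 for the other immediate early genes and -0.07 over all genes tested. Of the 31 other immediate early genes, 1 was higher and 5 were lower on slide 2 than on slide 1 (limma, adjusted p under 0.05), against 14.5% of all genes in either direction. These were Klf2, a shear- and serum-responsive factor, higher by 0.96, and Ccn1, Egr3, Klf6, Nr4a1 and Srf, all lower, named after their values were seen. Their part in the genotype comparison was not tested beyond the slide and pair blocks.

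**Figure D4:**
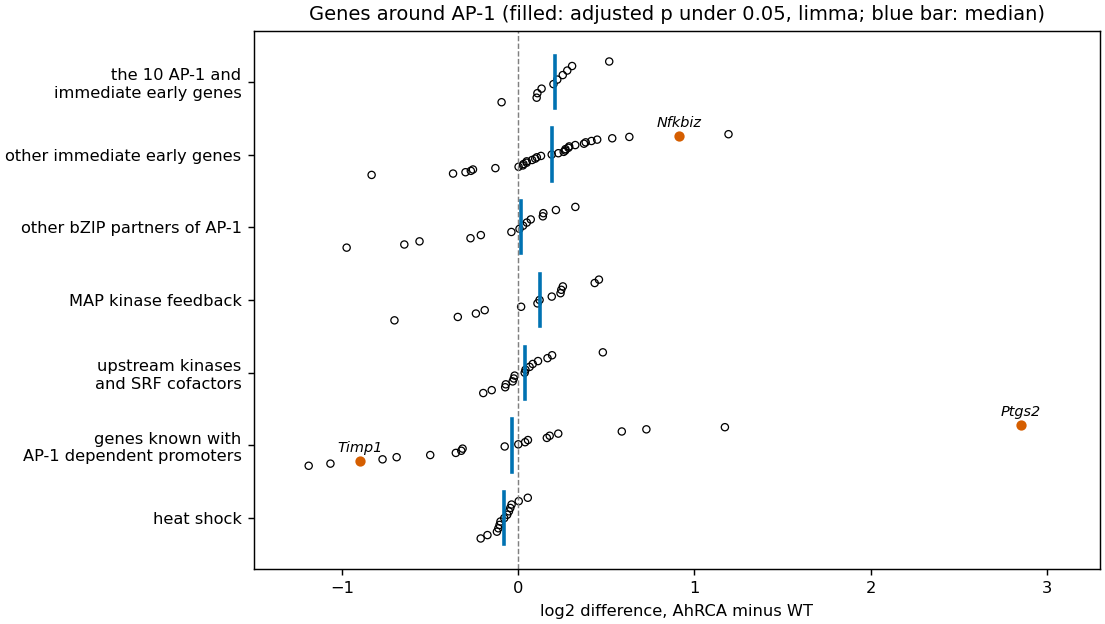
Log2 difference between the genotypes, AhRCA minus WT, for the tested genes of 7 groups, with each group's median as a blue bar, open circles for genes at an adjusted p of 0.05 or more and filled circles for those under it (limma, 3 mice per group). The height within a row only spreads the points, and Nfkbiz, Ptgs2 and Timp1 are the filled ones.

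Markers of the cells that the epidermis samples could hold were set beside these results. Of 3 basal and 3 suprabasal keratinocyte markers 0 changed, and their summed levels were 8.99 to 9.27 and 9.32 to 9.63 in AhRCA, against 8.94 to 9.22 and 9.49 to 9.61 in WT. The 6 fibroblast markers summed to 4.26 to 4.28 in AhRCA, against 4.18 to 4.67 in WT, and none of the 5 tested changed, with Pdgfra not well above background on any array. The endothelial markers Pecam1, Cdh5 and Kdr, the muscle markers Myh3, Ckm and Des, and the myeloid markers Lyz2 and Csf3r were not well above background on any array. Langerhans cell markers summed to 0.52 to 1.91 in AhRCA, against 2.19 to 3.21 in WT. Of these 3 markers Cd207 was well above background on all WT arrays and on 0 AhRCA arrays, so it passed the filter on dim probes through WT alone and its call is no support. Cd74 and H2-Ab1, which take part in antigen presentation, were measured on all 6 arrays and did not pass without a block (limma, adjusted p = 0.182 and 0.227). With litter pairs blocked both fell (adjusted p = 0.0114 and 0.0237), and both were lower in AhRCA in all 3 pairs. The part of these cells in the values of Jun or Jdp2 was not tested. The 4 T cell markers summed to -0.29 to 0.04 in AhRCA, against -0.43 to 0.33 in WT. The brightest of them, Ptprc, was higher in AhRCA in all 3 pairs. Cd3d and Cd3e were lower in all 3 pairs, and Cd3g was lower in pairs 1 and 2 and higher in pair 3. The median log2 difference of the 4 was -0.60, and 2 had an unadjusted p under 0.05 (limma), against 12.2% of all genes. At an adjusted p under 0.05, 0 of the 4 changed. Nor did any of the 3 melanocyte, 2 Schwann cell and 2 erythroid markers tested, and the mast cell marker Cpa3 was not well above background on any array. Between the slides, keratinocyte sums were 8.94 to 8.99 (basal) and 9.32 to 9.49 (suprabasal) on slide 2, against 9.12 to 9.27 and 9.52 to 9.63 on slide 1. Fibroblast sums were 4.18 to 4.26 on slide 2, against 4.26 to 4.67 on slide 1, and melanocyte sums 5.89 to 6.07 on slide 2, against 6.31 to 6.43 on slide 1. Langerhans sums were 0.52 to 2.19 on slide 2, against 1.68 to 3.21 on slide 1. Both Cd74 and H2-Ab1 were called lower on slide 2 (limma, adjusted p under 0.05), and the call of Cd207 again adds nothing. The basal, suprabasal, fibroblast and melanocyte sums were also lower on slide 2. There Krt5, Krt14 and Krt10 were lower than on any slide 1 array, Krt1 and Trp63 overlapped, and Dsg1a was higher. None of the basal or suprabasal markers was called between slides (limma, adjusted p under 0.05). Their median differences were -0.08 and -0.13, against -0.07 over all genes tested. Of the fibroblast and the melanocyte markers 1 each was called lower, and of the T cell markers 1 was called higher. Of all genes 14.5% were called between slides in either direction. T cell sums overlapped, at -0.43 to -0.04 on slide 2, against -0.29 to 0.33 on slide 1. Jun and Atf3 were lower on slide 2, whereas Fos and Dusp1 were higher there, and the part of these cells in the slide values was not tested.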

How the data were processed

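Per the labels' protocols, epidermal RNA was prepared on RNeasy Micro columns and the Quick Amp kit was used for Cy3 labelling. Per the file headers, the deposited spot intensity values were read with Agilent Feature Extraction (version 10.7.3.1) and background was subtracted within each array. The authors' deposited table holds log2 values centred on each probe, with the direction of the intensities (slope 1 against the scanner values); how it was centred and scaled is not given in the sources used here. Its column medians were 0.0282, 0.0633 and -0.0704 for AhRCA 1 to 3 and -0.0703, -0.0494 and 0.0825 for WT 1 to 3.

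Each array had 45018 spots, of which 1639 controls and 56 to 94 outliers were left out; 56.2% to 61.3% of spots were well above background and 0 were saturated. Processed intensities were put on the log2 scale, the 75th percentile of the array was subtracted, and spots of a probe were averaged. Of 41174 probes 26690 were named through RefSeq accessions (GRCm38.p6) and 14484 were not. A probe was kept if it stood well above background on 3 or more of the 6 arrays (24005 probes), the brightest standing for its gene, which gave 12824 genes, 3 of them with a missing value. All 10 members passed this filter, on all 6 arrays. Genotypes, litter pairs, slides and their interaction were fitted with limma 3.58.1 in R 4.3.3 with Benjamini-Hochberg adjustment over all genes and a threshold of 0.05. The fits were checked on simulated data with independent noise on each array and planted changes larger than the members' differences. That check does not cover changes of the members' size or what arrays of a pair or slide share. Alternatives were quantile and median scaling, the authors' table, normexp (offset 50), other filters on dim probes, the mean of a gene's probes, litter pair or slide as a block, slide 1 alone, and each array left out.

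Each sampling paired 1 AhRCA mouse with a WT littermate, per the labels. Deviations from the group means of same-numbered arrays correlated at 0.337, 0.372 and 0.55, those of other pairs of arrays at -0.416 to 0.194. All negative values involve an array of replicate 3, which alone lay on slide 2 and was male, so they do not bear on litter. Between replicates 1 and 2 the arrays of unlike number correlated at 0.150 and 0.194. The numbers were taken to pair the samples, on this limited ground. Slides and scans coincided.

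Named genes were the 10 members, Cyp1a1, up to 4 genes of each list that passed or otherwise the 2 with the largest difference, and the 5 genes most like Fos. The members and lists were chosen with earlier results of these data known. List entries without a probe were not analysed here.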

Additional observations from a re-analysis of the deposited data

How the results depend on the processing

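No member passed under any of the 16 alternatives for the genotype comparison. Among the genes named, 3 reversed: Fosb had -0.11 on slide 1 alone and -0.059 without WT replicate 3 (up to 0.25 without another array), Fosl2 had -0.11 without AhRCA replicate 3 (up to 0.22), and outside the members Hsph1 had 0.072 on slide 1 alone and 0.037 without AhRCA replicate 3 (down to -0.64). The count over all genes was 279. It was 132 with dim probes included, 130 on slide 1 alone, 497 with the litter pair as a replicate block and 539 with the slide as a block, and 62 to 195 without 1 array. Of the gene lists around AP-1, 3 genes passed. There was 1 under quantile normalization, with median scaling and on slide 1 alone, 0 with dim probes included, 6 with the slide as a block, and 0 to 2 without 1 array. The replicate block moved no member past the threshold and ended the calls of Nfkbiz and Timp1. Quantile normalization, median scaling, dim probes included and slide 1 alone each ended these calls too, and normexp ended that of Timp1. For Ptgs2 the call ended with dim probes included and on slide 1 alone. The count of 3 members between slides was 5 with normexp, where Fos and Jun also passed, 0 with dim probes included and 0 without any 1 array. It stayed 3 under quantile normalization, but with other genes. There Fos passed, with 0.47 (limma, adjusted p = 0.041), and Atf3 did not, with -0.31 (adjusted p = 0.0884). The comparison of slides gave 3 where the F test over pairs gave 0. Between slides, Junb reversed without WT replicate 2 (-0.032, and up to 0.11 without another array) and Fosb without WT replicate 3 (0.17, and down to -0.49). The interaction could not be fitted without either array of slide 2. The causes were not tested. With 3 arrays per genotype, an exact permutation test could not go below p = 0.1, and differences within the intervals given cannot be resolved. Normexp used the median spot signal, since the files hold no mean signal.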
